A study of Mus musculus with 6 samples.

Results

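Metalloproteinases that cut the extracellular matrix, and the inhibitors that hold them in check, were followed in tumors of the same cells grown at 2 sites. The genes were all those whose symbol is Mmp, Adamts or Timp with a number. These families were chosen with earlier results of these data known, so their shares are not those of a blind choice. Of the 19938 genes with a value 44 matched: 22 matrix metalloproteinases (MMPs), 18 ADAMTS proteases and all 4 tissue inhibitors of metalloproteinases (TIMPs). Mmp15 and Adamts2 were not analysed here. Renca is an established renal carcinoma line of the BALB/c mouse. Its cells were injected into the outer kidney (intrakidney tumors, 3 mice) or under the skin (subcutaneous tumors, 3 mice) of BALB/c mice. The mice received no other agent that the labels name, and their age is not given there. Tumors were taken whole on day 12, so each sample holds RNA of Renca cells and of the host cells among them. In such bulk RNA, fewer cells of a type and less RNA per cell cannot be told apart.

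MMPs are zinc-dependent enzymes that are made as inactive precursors and cut collagens, gelatin, laminins, elastin and other matrix proteins once their propeptide is removed. ADAMTS proteases are secreted relatives that carry thrombospondin repeats. Some of them cut large proteoglycans such as versican and aggrecan, and others trim procollagens. TIMPs block the active site of these enzymes, and Timp3, which is bound to the matrix, is the TIMP known for blocking ADAMTS aggrecanases as well. In tumors these genes are known to be expressed by fibroblasts, macrophages, neutrophils and endothelium as well as by the malignant cells.

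The inhibitor gene Timp3 and the aggrecanase gene Adamts5 were higher in intrakidney tumors, Timp3 2.22-fold and Adamts5 1.64-fold, and they were the only members past an adjusted p of 0.05 in limma's fit over all genes. That is 2 of 44 members, both higher, where 0.231% of all genes passed in either direction and 0.13% passed as higher. The direction and number of calls moved with the fit: with array weights, by which limma counts more variable arrays less, 6 members passed as higher and 6 as lower, and without intrakidney tumor 3 Adamts5 and Timp3 passed as higher and Mmp13 and Mmp2 as lower. Around them the family lay on both sides. Adamts1, Mmp10, Mmp8 and Timp1 were higher in every intrakidney tumor than in any subcutaneous tumor, while Mmp13, Mmp2, Mmp3, Mmp25, Mmp14, Mmp11 and Mmp16 were lower in every intrakidney tumor, to name the main ones. In all, 8 members were apart in the higher direction and 11 in the lower, together 43.2% of the 44, against 14.9% of all genes (8.41% higher and 6.53% lower). At an unadjusted p of 0.05, 7 members were higher and 10 lower, or 38.6%, where 8.43% of all genes passed, 4.72% as higher and 3.71% as lower. Of the 22 MMPs, 0 passed limma's adjusted threshold and 10 had an unadjusted p under 0.05, 2 of them higher and 8 lower. With array weights Mmp2, Mmp3, Mmp8, Mmp10, Mmp11, Mmp14 and Mmp16 passed. On the log2 scale, Mmp8 (1.01) and Mmp13 (-0.62) then lay nearer to intrakidney tumor 3 minus the subcutaneous mean (1.15 and -0.25) than without weights. Mmp25 (-0.36) lay farther from it (-0.43). The median log2 fold change of the members, intrakidney minus subcutaneous, was -0.04, beside -0.01 over all genes (0.023 for the members without intrakidney tumor 1), and the median absolute change was 0.11 beside 0.08. All values are log2 intensities of a microarray probe set, so a level of 1 gene is not set against that of another.

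**Figure D1:**
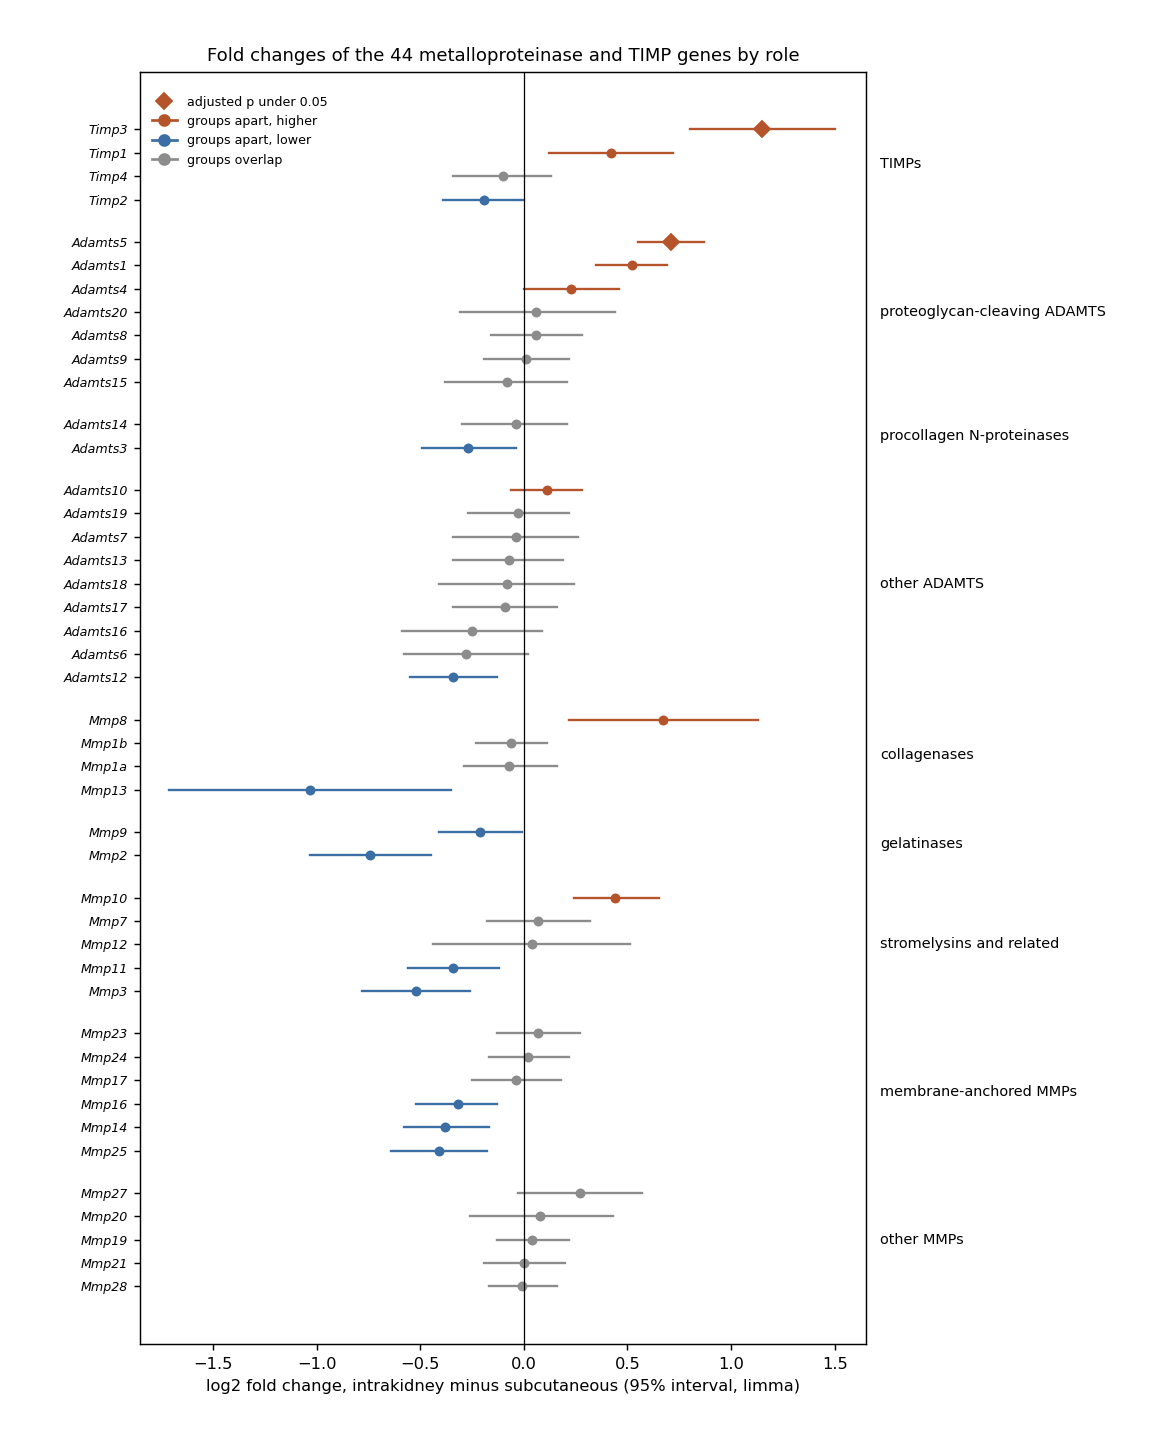
Log2 fold change of each of the 44 genes (horizontal axis, intrakidney minus subcutaneous, point) with its 95% interval from limma (line), grouped by role. Orange marks genes whose 3 intrakidney tumors all lie above the 3 subcutaneous tumors, blue the reverse, grey overlap, and diamonds an adjusted p under 0.05, which Timp3 (1.15) and Adamts5 (0.71) reached.

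Of the members, 10 MMP genes lie side by side on chromosome 9 with no other protein-coding gene between them, in the RefSeq annotation of GRCm38.p6. Of these neighbours 4 were apart between the sites, in opposite directions, where 14.9% of all genes were apart. None of these 4 genes passed limma's adjusted threshold, with an adjusted p of 0.150 to 0.379. The 250 bases before their annotated start are shown to compare them, 5′ to 3′ on the plus strand of GRCm38.p6, as given by RefSeq. They are those of Mmp13 (chr9:7272264-7272513) and Mmp3 (chr9:7445572-7445821), lower in intrakidney tumors, and of Mmp10 (chr9:7502092-7502341) and Mmp8 (chr9:7558179-7558428), higher there. Capitals mark matches to TGANTCA, a pattern that reads the same on both strands. It covers the AP-1 site, TGACTCA or TGAGTCA, and is looser than that site, since N stands for any base.
Mmp13: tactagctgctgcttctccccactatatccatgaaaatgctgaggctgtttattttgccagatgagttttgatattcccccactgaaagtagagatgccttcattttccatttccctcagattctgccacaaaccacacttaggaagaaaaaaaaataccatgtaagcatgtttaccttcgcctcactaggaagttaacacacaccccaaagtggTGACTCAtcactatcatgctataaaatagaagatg
Mmp3: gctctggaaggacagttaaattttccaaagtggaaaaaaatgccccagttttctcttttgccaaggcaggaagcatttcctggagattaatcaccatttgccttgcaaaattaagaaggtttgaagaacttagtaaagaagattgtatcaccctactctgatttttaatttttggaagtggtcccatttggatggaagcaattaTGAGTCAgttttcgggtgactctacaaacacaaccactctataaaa
Mmp10: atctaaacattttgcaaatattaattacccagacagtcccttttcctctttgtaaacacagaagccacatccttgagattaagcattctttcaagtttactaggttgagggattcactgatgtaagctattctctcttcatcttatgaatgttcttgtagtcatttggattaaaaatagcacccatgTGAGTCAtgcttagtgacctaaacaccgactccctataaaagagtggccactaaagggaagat
Mmp8: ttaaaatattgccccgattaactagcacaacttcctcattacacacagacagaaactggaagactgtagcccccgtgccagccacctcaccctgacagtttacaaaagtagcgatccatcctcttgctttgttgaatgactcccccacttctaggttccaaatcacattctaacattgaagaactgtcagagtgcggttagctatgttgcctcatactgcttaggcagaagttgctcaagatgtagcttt

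AP-1 is the Fos and Jun family of transcription factors, known as a regulator of collagenase and stromelysin genes. A TGANTCA match lay in this window in 8 of the 10 clustered genes, namely Mmp13, Mmp12, Mmp1b, Mmp3, Mmp1a, Mmp10, Mmp20 and Mmp7, between 35 and 95 bases before the start. The match of Mmp20, at 95 bases, read TGAATCA and so fits only the looser pattern, while the others read TGACTCA or TGAGTCA. No match lay in the windows of Mmp8 and Mmp27, nor in any of the 20 other members with a sequence in the table. Of 32851 mouse promoter windows of the same length, 6.75% held a match. The match was thus present both in Mmp13 and Mmp3, which were lower, and in Mmp10, which was higher in intrakidney tumors. The TATA letters TATAAA were found in 9 of the 30 member genes with a sequence, Mmp13, Mmp3 and Mmp10 among them, and in 12.4% of all windows. No matches of different motifs overlapped in these promoters.

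Upstream windows of Timp3 (chr10:86300162-86300411, plus strand) and Adamts1 (chr16:85803114-85803363, minus strand) are shown for contrast, since these genes were higher in every intrakidney tumor and lie outside the cluster. Capitals here mark the GC box letters GGGCGG on either strand, with 1 match in Timp3 and 3 in Adamts1. These letters occurred in 14 of the 30 member genes and in 32.7% of all windows, and in none of the 10 clustered genes. No TGANTCA match lay in either window.
Timp3: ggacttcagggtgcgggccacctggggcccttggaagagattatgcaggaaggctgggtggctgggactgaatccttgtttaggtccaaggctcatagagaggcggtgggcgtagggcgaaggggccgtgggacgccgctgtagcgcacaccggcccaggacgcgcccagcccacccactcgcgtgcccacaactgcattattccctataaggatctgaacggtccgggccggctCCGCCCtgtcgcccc
Adamts1: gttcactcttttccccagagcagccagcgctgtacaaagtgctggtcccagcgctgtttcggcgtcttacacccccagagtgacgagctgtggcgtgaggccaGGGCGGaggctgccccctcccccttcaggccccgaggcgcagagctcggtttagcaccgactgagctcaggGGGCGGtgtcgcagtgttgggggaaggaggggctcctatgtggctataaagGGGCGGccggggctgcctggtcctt

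Among the inhibitors, Timp3 (probe set 10365482) measured 8.85, 8.63 and 9.22 in intrakidney tumors 1, 2 and 3 and 7.89, 7.68 and 7.67 in the subcutaneous tumors, in the order of their numbers. The groups were apart by more than the range within either of them. The difference was 1.15 ± 0.15 on the log2 scale (SE, n = 3 per group, limma adjusted p = 0.0437). The sign was the same in all settings tried, but the call was lost when intrakidney tumor 1 was left out (1.18, adjusted p = 0.0955), and likewise subcutaneous tumor 1, 2 or 3 (1.22, 1.12 and 1.12, with adjusted p of 0.160, 0.247 and 0.153).

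Timp1, a secreted inhibitor that many cells make under inflammatory stimulation, measured 10.29, 10.30 and 10.74 in intrakidney and 9.97, 10.09 and 10.01 in subcutaneous tumors. All intrakidney tumors were higher, tumor 3 the most, and the difference of 0.42 ± 0.13 did not pass (adjusted p = 0.401). It was 0.27 without tumor 3 and 0.22 with the mean of 15 markers of kidney proximal tubule in the fit, and with array weights it was 0.55 and passed (adjusted p = 0.0426 in limma). Timp2, which blocks MMPs and also takes part in the activation of pro-Mmp2 by Mmp14, lay the other way. It measured 11.75, 11.76 and 11.62 against 11.96, 11.96 and 11.78, a difference of -0.19 ± 0.08 (adjusted p = 0.597). Timp4 overlapped between the groups, with 5.11 to 5.32 in intrakidney and 5.22 to 5.50 in subcutaneous tumors, a difference of -0.10 (95% interval -0.34 to 0.13). The 4 inhibitors were therefore split, with 2 apart as higher, 1 apart as lower and 1 overlapping, and only Timp3 passed the test.

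**Figure D2:**
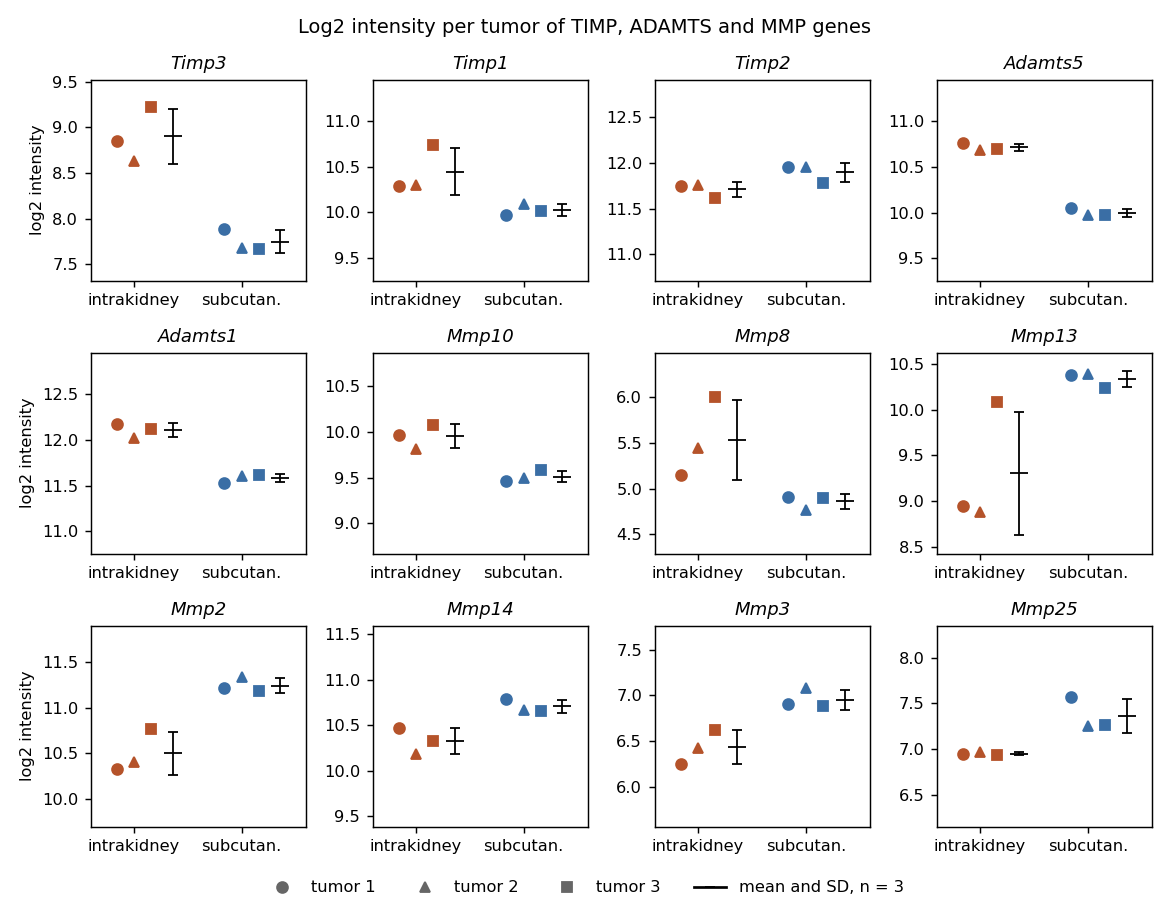
Log2 intensity (vertical axis) of 12 genes in each intrakidney and subcutaneous tumor (symbols give the tumor number, which does not pair the mice), with the mean and SD of 3 tumors in black. All panels span the same number of log2 units, and in each of them the groups do not overlap.

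Adamts5, with Adamts4 the main aggrecanase of cartilage and a versican-cutting enzyme elsewhere, was the member with the lowest p. Its probe set (10440534) measured 10.76, 10.68 and 10.70 in intrakidney and 10.05, 9.97 and 9.97 in subcutaneous tumors. The tumors within a site were within 0.1 of each other, and the log2 difference between sites was 0.71 ± 0.07 (SE, adjusted p = 0.0141). Without subcutaneous tumor 1, 2 or 3 the difference was 0.74, 0.70 and 0.70 and the adjusted p was 0.0766, 0.119 and 0.0792, so the call was lost in each case, while it held without each of the intrakidney tumors.

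Adamts1, which cuts versican and aggrecan and lies next to Adamts5 on chromosome 16, differed in the same direction. It measured 12.17, 12.02 and 12.12 in intrakidney and 11.53, 11.60 and 11.62 in subcutaneous tumors, a 1.43-fold difference just outside the threshold (0.52 ± 0.07, adjusted p = 0.0533). It passed after quantile normalization (adjusted p = 0.0411) or median centring (adjusted p = 0.0496), and with an offset of 16 (adjusted p = 0.0274). It also passed without dim genes (adjusted p = 0.0169), with array weights (adjusted p = 0.00632) and with an intensity trend and robust prior (adjusted p = 0.0032). Without single tumors it did not pass, with an adjusted p of 0.0797 to 0.291. No protein-coding gene lies between Adamts1 and Adamts5 in the RefSeq annotation.

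Adamts4 was also higher in every intrakidney tumor, with 8.68, 8.42 and 8.46 against 8.24, 8.21 and 8.41, but the lowest intrakidney tumor was barely above the highest subcutaneous tumor (0.23 ± 0.10, adjusted p = 0.591). Of the 7 proteoglycan-cutting ADAMTS genes, 3 were apart as higher and 0 as lower. Adamts20 ran from 5.53 to 6.11 in intrakidney and from 5.56 to 5.97 in subcutaneous tumors, a difference of 0.06 that turned negative in some settings. The remaining Adamts8, Adamts9 and Adamts15 differed by -0.08 to 0.06.

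Of 9 other ADAMTS genes, 8 had a negative difference. Adamts12, which cuts cartilage oligomeric matrix protein, measured 7.62, 7.49 and 7.55 against 8.02, 7.89 and 7.76. All 3 intrakidney tumors were lower and the difference of -0.34 ± 0.09 did not pass (adjusted p = 0.303). Adamts6, a relative of Adamts10, measured 7.48, 7.23 and 7.50 against 7.90, 7.70 and 7.46, with the groups overlapping (-0.28, adjusted p = 0.633). Adamts10, which binds fibrillin microfibrils, was narrowly apart in the other direction, 7.20 to 7.21 against 7.04 to 7.19 (0.11, adjusted p = 0.757). Adamts3, a procollagen N-proteinase, measured 6.94, 7.16 and 7.02 against 7.28, 7.19 and 7.45 on its highest probe set (-0.27, adjusted p = 0.494). Its 16 probe sets disagreed, 10 higher and 6 lower, and their mean gave 0.04. Adamts14, the other procollagen N-proteinase measured, differed by -0.04, and the remaining 6 ADAMTS genes by -0.25 (Adamts16) to -0.03 (Adamts19).

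The gelatinases, which cut denatured collagen and basement membrane collagen, were lower in intrakidney tumors in both cases without passing the test. Mmp2, made mainly by fibroblasts, measured 10.33, 10.40 and 10.77 in intrakidney and 11.21, 11.33 and 11.18 in subcutaneous tumors. The intrakidney tumors were all lower, tumor 3 the least, with a mean difference of -0.74 ± 0.12 (1.67-fold, adjusted p = 0.0947). Without intrakidney tumor 3 the difference was -0.88 and passed (adjusted p = 0.0320). With all tumors it passed in limma without dim genes (adjusted p = 0.0397) and with array weights (adjusted p = 0.0257). It also passed with an intensity trend and robust prior (adjusted p = 0.0128). With the mean of 15 markers of kidney proximal tubule in the fit the Mmp2 difference was -0.93 and did not pass (limma adjusted p = 0.0632). Mmp9, the gelatinase of neutrophils and macrophages, measured 7.37, 7.47 and 7.54 against 7.55, 7.77 and 7.70, groups that met at their edges (-0.21 ± 0.09, adjusted p = 0.570).

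Mmp14, the membrane protease that activates pro-Mmp2 at the cell surface, lay lower too. It measured 10.47, 10.19 and 10.33 against 10.79, 10.67 and 10.66, a difference of -0.38 ± 0.09 (adjusted p = 0.256). Mmp25, a membrane-anchored protease of leukocytes, measured 6.95, 6.97 and 6.93 against 7.57, 7.25 and 7.26 (-0.41 ± 0.10, adjusted p = 0.260), and subcutaneous tumor 1 was the highest. Mmp16, a close relative of Mmp14, measured 5.42, 5.53 and 5.39 against 5.67, 5.89 and 5.75 (-0.32 ± 0.08, adjusted p = 0.297). Mmp17, Mmp23 and Mmp24 overlapped between the sites and differed by -0.04 to 0.07. Of the 6 membrane-anchored MMPs measured, 3 were thus apart as lower and 0 as higher, and 0 passed limma's adjusted threshold, while 3 had an unadjusted p under 0.05.

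Among collagenases, which cut fibrillar collagen, Mmp13 showed the largest difference in level between sites of any MMP and also the widest spread. It measured 8.95, 8.88 and 10.08 in intrakidney and 10.38, 10.39 and 10.24 in subcutaneous tumors. Intrakidney tumors 1 and 2 were far below all others, and tumor 3 lay just under the lowest subcutaneous tumor. The SD was 0.68 in intrakidney tumors, the highest of all members, and 0.08 in subcutaneous tumors. The difference of -1.03 ± 0.29 (SE) did not pass with all tumors (adjusted p = 0.365). Without intrakidney tumor 3 it was -1.42 and passed (adjusted p = 0.00694). It was -0.86 without intrakidney tumor 1, -0.82 without intrakidney tumor 2 and -0.62 with array weights (adjusted p = 0.392, 0.557 and 0.206 in limma), so the call rests on leaving out tumor 3. With the mean of 15 markers of kidney proximal tubule in the fit the difference was larger, at -1.54, and did not pass (limma adjusted p = 0.0952).

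Mmp8, the collagenase stored by neutrophils, lay in the opposite direction, with 5.15, 5.45 and 6.01 against 4.91, 4.77 and 4.90 (0.67 ± 0.20, adjusted p = 0.379). Its probe set was dim, at the 13.2 percentile of all genes, and tumor 3 was again the highest. The difference was 0.44 without tumor 3 and 0.31 with the mean of 15 markers of kidney proximal tubule in the fit, and with array weights it was 1.01 and passed (adjusted p = 0.0214 in limma). The 8 neutrophil markers averaged 6.32, 6.60 and 6.89 in intrakidney tumors 1, 2 and 3, against 6.19 to 6.30 under the skin, with 4 of the 8 apart as higher and 0 past the threshold (3 at an unadjusted p of 0.05). The 4 apart were S100a8 (0.77), S100a9 (0.66), Cxcr2 (0.83) and Csf3r (0.33). The others overlapped between the sites, namely Retnlg (0.23), Ly6g (0.09), Elane (0.08) and Mpo (-0.04). The part of neutrophils in the Mmp8 difference was not tested. Mmp1a and Mmp1b, dim on this array, overlapped between the sites and differed by -0.07 and -0.06.

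The stromelysins, which cut laminin, proteoglycans and other non-fibrillar proteins, were split. Mmp10 measured 9.97, 9.82 and 10.08 in intrakidney and 9.46, 9.50 and 9.58 in subcutaneous tumors, higher in all 3 (0.44 ± 0.09, adjusted p = 0.150). It passed in limma with an intensity trend and robust prior (adjusted p = 0.0319) and with array weights (adjusted p = 0.0152). Mmp3, a stromelysin of fibroblasts, measured 6.25, 6.42 and 6.62 against 6.90, 7.08 and 6.88, lower in all 3 (-0.52 ± 0.11, adjusted p = 0.187). Mmp11, a stromal MMP with little activity on classical matrix proteins, measured 8.09, 8.22 and 8.0 against 8.54, 8.49 and 8.29 (-0.34 ± 0.10, adjusted p = 0.363). Mmp10 and Mmp3, which are close relatives, therefore differed in opposite directions, though neither passed in the main fit.

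Mmp12, the elastase of macrophages, spread widely among intrakidney tumors (SD 0.45, against 0.09 in subcutaneous tumors) and differed little in mean between the sites. It measured 11.10, 11.28 and 11.96 in intrakidney and 11.43, 11.50 and 11.32 in subcutaneous tumors, so intrakidney tumors held both the lowest and the highest values. The mean difference was 0.04 (95% interval -0.44 to 0.51), and -0.22 without intrakidney tumor 3. Mmp7, the epithelial matrilysin, differed by 0.07. Of the remaining MMPs, Mmp20, a protease of tooth enamel, overlapped between the sites at 5.58, 5.97 and 5.96 against 5.50, 5.82 and 5.95. Mmp19, Mmp21 and Mmp28 differed by -0.01 to 0.04, and Mmp27 by 0.27 with overlapping groups.

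In the cluster on chromosome 9, 6 of the 10 genes had a positive and 4 a negative difference, from -1.03 (Mmp13) to 0.67 (Mmp8). None of the 10 passed limma's adjusted threshold. Read in order from Mmp13, the genes apart as lower, Mmp13 and Mmp3, came before those apart as higher, Mmp10 and Mmp8, and the 6 others overlapped between the sites. Mmp27, next to Mmp8, had the next largest positive value (0.27), although subcutaneous tumor 1 was above intrakidney tumor 3.

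**Figure D3:**
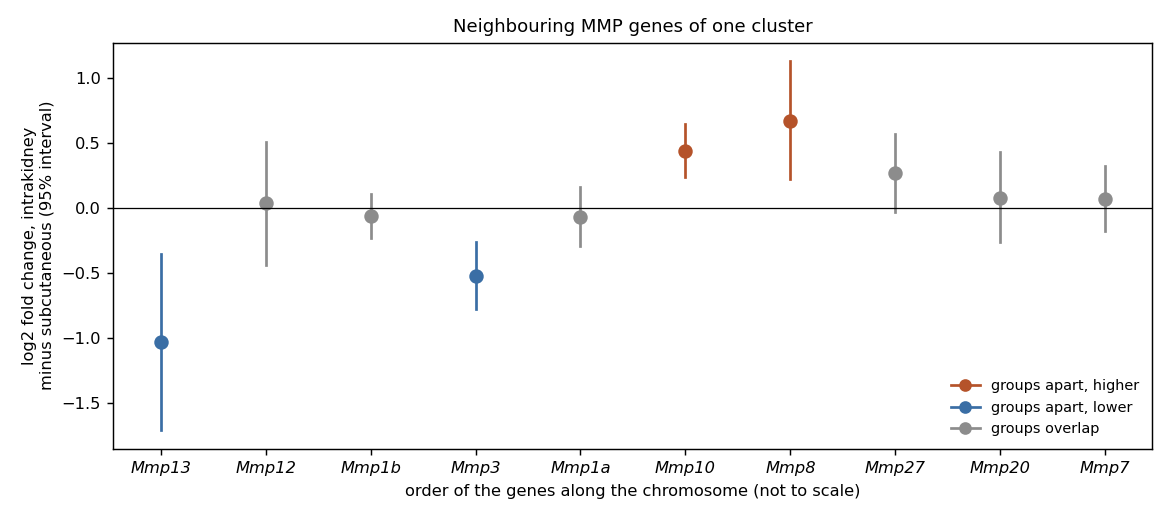
Log2 fold change (vertical axis, intrakidney minus subcutaneous, point) with its 95% interval from limma (line) for the 10 neighbouring MMP genes, in their order along the chromosome (horizontal axis, distances not to scale). Mmp13 (-1.03) and Mmp3 (-0.52) lie below 0, and Mmp10 (0.44) and Mmp8 (0.67) above it.

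The intrakidney tumors did not stand alike. Tumor 3 was the highest of the 3 for 16 of the 44 members (36.4%), against 24.2% of all genes, and for 8 of the 19 members whose groups were apart, where tumors 1 and 2 were the highest for 5 and 6. For Mmp13, Mmp2 and Mmp3 this put tumor 3 nearest to the subcutaneous group, and for Timp3, Timp1 and Mmp8 farthest from it. Tumor 1 was the highest for 8 members (18.2%, against 35% of all genes) and tumor 2 for 20 (45.5%, against 40.8%). Adamts5 and Adamts1 were nearly level over the 3 tumors, at 0.68 to 0.76 and 0.44 to 0.59 above the subcutaneous mean.

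Markers of other cells differed between these tumors as well. The 15 proximal tubule markers averaged 6.26, 6.71 and 7.46 in intrakidney tumors 1, 2 and 3, against 6.21 to 6.37 under the skin. Cyp2e1 (2.55) and Pck1 (0.64) were apart as higher and Aqp1 (-1.04) as lower, and the others overlapped. Together 20% of the list was apart, near the 14.9% of all genes, and 0 passed the test. The 11 fibroblast markers averaged 8.66, 8.50 and 9.11 against 9.27 to 9.41, and 6 of the 11 were apart as lower, of which Lrrc15 and Postn passed the test. The others overlapped between the sites, namely Dcn (0.46), Fap (0.06), Pdgfrb (-0.06), Pdgfra (-0.38) and Col3a1 (-0.45). The fibroblast mean of tumor 3 was nearest to the subcutaneous level. Among the members apart as lower, this also held for Mmp13, Mmp2, Mmp3 and Mmp9. Tumor 3 was instead the farthest from that level for Mmp11, Mmp16, Mmp25 and Timp2. It lay between the other intrakidney tumors for Mmp14, Adamts12 and Adamts3. The part of fibroblasts, or of kidney tissue in the sample, in these differences was not tested. With the proximal tubule mean as a covariate, a setting added after the values were seen, Timp3 differed by 0.98 (adjusted p = 0.180) and Adamts5 by 0.74 (adjusted p = 0.0904), and 0 members passed, while 19 had an unadjusted p under 0.05 in limma.

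Intrakidney tumor 1 alone lay 1.1 above the subcutaneous mean for Timp3 and 0.76 above it for Adamts5. These sizes come from 1 tumor and say nothing of the spread among intrakidney tumors. The 8 endothelial markers were higher on average, 8.20 to 8.23 against 7.83 to 8.0, with 6 apart as higher and Emcn past the test. Adipocyte markers were also higher, with means of 7.42 to 7.67 against 6.25 to 6.45, 4 of 6 apart and Car3, Fabp4 and Cidec past the test. Car3 (3.41) had the largest difference of all genes, followed in this list by Fabp4 (2.08), while Plin1 (0.15) and Lep (0.03) overlapped between the sites. The marker lists were chosen with earlier results of these data known, so such a mean is no independent measure of a cell type. The means over 9 macrophage markers were 10.25 to 10.41 against 10.10 to 10.16, with 3 apart as higher, 0 past the test and 2 at an unadjusted p of 0.05. The 3 apart were Cd163 (1.04), Mrc1 (0.39) and Lyz2 (0.13). The others overlapped, with Itgam (0.19), Mertk (0.12) and Fcgr1 (0.08) positive and Adgre1 (-0.05), Cd68 (-0.06) and Csf1r (-0.14) negative. Among markers of mesothelium, podocytes, distal nephron, skeletal muscle and epidermis 0 passed limma's test, and 1 of 5 (higher), 1 of 5 (lower), 0 of 8, 1 of 6 (lower) and 0 of 6 had an unadjusted p under 0.05. The part of these cell types in the Timp3 and Adamts5 differences was not tested.

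**Figure D4:**
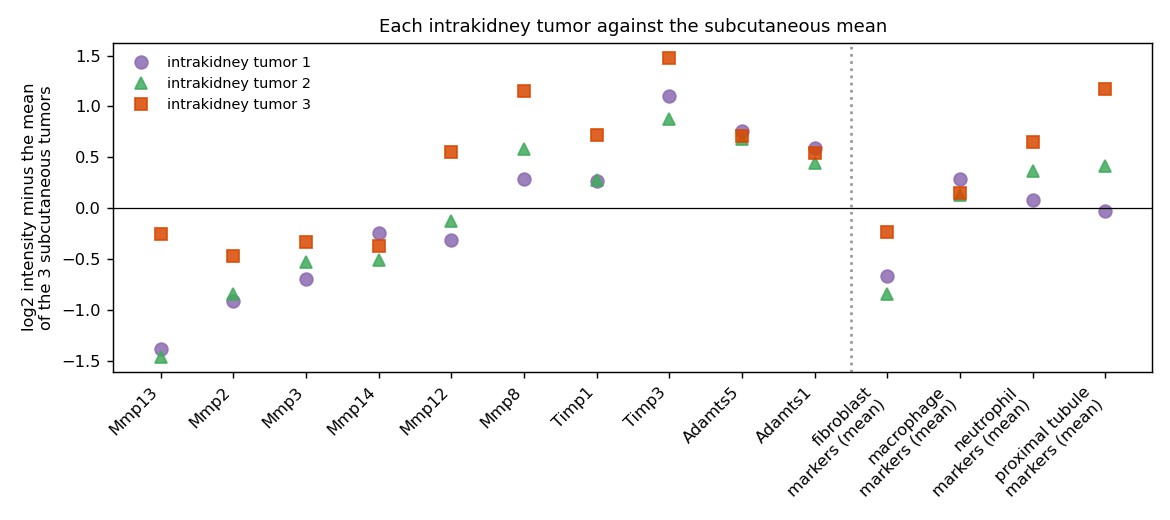
Log2 intensity of each intrakidney tumor minus the mean of the 3 subcutaneous tumors (vertical axis) for 10 member genes and, right of the dotted line, for the mean of 4 marker lists. Tumor 3 (squares) lies nearest to 0 for Mmp13 (-0.25) and the fibroblast markers (-0.23) and above the other tumors for the proximal tubule markers (1.17), while the 3 tumors nearly coincide for Adamts5.

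Genes that activate, clear or accompany these proteases were read from related lists. Of 10 measured activators and controls, 1 passed the test, Thbs2, a matricellular protein known to help clear Mmp2 from the cell surroundings. It was lower in intrakidney tumors, at 7.93, 7.73 and 8.52 against 9.79, 9.72 and 9.92 (-1.75 ± 0.19, adjusted p = 0.0228), with tumor 3 nearest to the subcutaneous group. The urokinase receptor gene Plaur and the urokinase gene Plau, which start the plasmin cascade that activates several pro-MMPs, were higher in all intrakidney tumors. Plaur measured 9.96, 9.85 and 10.21 against 9.29, 9.39 and 9.40 (0.65 ± 0.10, adjusted p = 0.0840). Plau measured 10.68, 10.41 and 10.54 against 9.99, 10.11 and 10.23 (0.43 ± 0.10, adjusted p = 0.228). Reck, a membrane-anchored inhibitor of MMPs, and the convertase gene Furin differed by 0.02 each.

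None of 11 ADAM membrane proteases passed with limma, and 1 was higher and 2 lower at an unadjusted p of 0.05. Adamdec1, a protease of macrophages and dendritic cells, differed by 0.47, Adam12 by -0.29 and Adam19 by -0.28 (adjusted p = 0.354, 0.420 and 0.420), and each was apart between the sites. The 7 ADAMTS-like genes, which resemble ADAMTS proteases but lack the catalytic domain, all overlapped between the sites and differed by -0.12 to 0.12. Of 7 astacin and procollagen-processing genes 0 passed, with 1 lower at an unadjusted p of 0.05, Tll1 (-0.31, adjusted p = 0.420). Among 12 measured substrates 0 passed and 2 were higher at an unadjusted p of 0.05, Fn1 for fibronectin (0.98 ± 0.16, adjusted p = 0.0953) and Nid1 for nidogen (0.33, adjusted p = 0.307). The ADAMTS substrate versican, Vcan, measured 7.43, 7.17 and 8.42 against 7.25 to 7.33, overlapping between the sites and highest in tumor 3.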

How the data were processed

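Total RNA of 6 snap-frozen tumors, 3 per site, was measured on Affymetrix whole-transcript mouse gene arrays. Per the submitters' processing notes, the authors used RMA and affy, and the deposited values, from 2.31 to 15.07, are read here as log2 intensities. RMA compresses changes of dim genes. Its version, settings and the build are not given in the sources used here. Array medians ran from 7.08 to 7.11, and arrays correlated at 0.990 to 0.997 over genes, which are not independent. Precision is limited by the number of arrays.

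Of 35512 rows, 21789 were paired with exactly 1 gene by the platform annotation, and per gene the row with the highest mean was kept (19938 genes). No dim genes were removed, and 18 of the 44 members lay under the 40th percentile of the mean level. The sites were compared by limma 3.58.1 under R 4.3.3 (eBayes, two-sided), Benjamini-Hochberg adjusted over all genes at 0.05, and the fit was tested on simulated data. Differences are intrakidney minus subcutaneous. The named members are those past the threshold or apart between groups, the 8 largest changes, the 3 highest SDs per group, and TIMPs, Mmp2, Mmp3, Mmp9, Mmp12, Mmp13, Mmp14 and Adamts1. The members and lists were chosen with earlier results of these data known. Alternatives were other normalizations, filters, priors, weights, blocks and left-out arrays. RefSeq (GRCm38.p6) gave gene order for all 44 members and promoters for 30.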

Additional observations from a re-analysis of the deposited data

How the results depend on the processing

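The count of members past the threshold was 2. It was 4 without dim genes, 5 with an intensity trend and robust prior, 12 with array weights, 0 with every row of the array tested, 0 at an adjusted p of 0.01, and 0 to 4 without single arrays. Among settings added after the values were seen, it was 1 without intrakidney tumors 2 and 3 and 0 with the proximal tubule covariate. The lone intrakidney tumor was there assumed to vary like the subcutaneous ones, so that count says nothing of the spread among intrakidney tumors. Over all genes, 46 passed, and in these settings, in the same order, 101, 138, 624, 0, 5, 2 to 33, 30 and 10. An offset of 16 gave 74. The cause of these shifts was not tested, except that fewer genes or arrays entered where some were left out. Without dim genes only 26 members were tested, of which 13 were lower instead of 25. The median over members was -0.036, and its sign was not stable: -0.086 (without intrakidney tumor 2) to 0.023 (without intrakidney tumor 1) without single arrays, 0.001 without subcutaneous tumor 3, 0.005 with array weights, 0.003 without dim genes and -0.167 without intrakidney tumors 2 and 3.

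The replicate block gave 0 genes and 0 members and thereby ended the calls of Timp3 (adjusted p = 0.116) and Adamts5 (0.0834). Over all settings, 14 to 21 members and 976 to 4465 of all features tested had an unadjusted p under 0.05 in limma. Same-numbered tumors share only a number: the correlations of their deviations from the group means were 0.37, -0.16 and 0.10, and 2 of 3 intrakidney tumors correlated best with their own number.

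Of 24 named members, 20 kept their sign in every setting that tested them; Mmp3, Mmp8, Mmp16 and Timp4, like Mmp20 and Adamts20, were not tested without dim genes. Without single arrays, Adamts20 ran from -0.09 to 0.20, Mmp12 from -0.22 to 0.21 and Mmp20 from -0.05 to 0.21. Adamts20 was -0.09 without intrakidney tumor 2, -0.03 without subcutaneous tumor 1, -0.22 without intrakidney tumors 2 and 3 and -0.04 with the tubule covariate. Mmp20 was -0.05, -0.17 and -0.09 in the last 3 of these settings. Mmp12 was -0.22 without intrakidney tumor 3, -0.01 without subcutaneous tumor 3, -0.31 without intrakidney tumors 2 and 3 and -0.33 with the covariate. Adamts3 was 0.04 with the mean of its rows. Signal near background limits the 18 dim members.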

Other observations

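Genes with several probe sets showed how far one gene's values can differ within the array. Adamts3 had 16, with mean levels from 3.76 to 7.17 and differences from -0.27 to 0.36, and the probe set used was the lowest of these differences. Adamts9, a proteoglycan-cutting ADAMTS, had 6, of which 5 were higher and 1 lower, from -0.03 to 0.26. Adamts17 had 5, all lower, from -0.14 to -0.01.

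Some genes of the related protease lists were raised mainly in intrakidney tumor 3. The plasminogen gene Plg measured 5.70, 6.07 and 7.97 in intrakidney tumors 1, 2 and 3, against 5.71 to 6.20 under the skin. The leukocyte protease gene Adam8 measured 8.92, 8.91 and 9.95, against 8.81 to 8.99. Mep1a, a protease of the kidney brush border, measured 4.79, 5.59 and 6.32, against 4.89 to 5.02, and so was raised in tumor 2 as well. None of these passed the limma test (adjusted p = 0.828, 0.798 and 0.692).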
